A study of Mus musculus with 4 samples.

Results

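PT-S2 is 1 of 17 cell clusters that the authors named in nuclei of the mouse kidney, and its label stands for the second segment (S2) of the proximal tubule (PT). It was taken as the deposited PT-S2 average of every gene and set against the same averages of the other 16 clusters, first of PT-S2/S3 and PT-S1, the clusters labelled as the neighbouring stretches of tubule. The PT-S2 profile held 4278626 of the 36068714 unique molecular identifiers (UMIs, each the count of 1 RNA molecule) in the 17 clusters, a share of 11.9%. It held 18.0% of the UMIs of the 6 proximal tubule clusters, beside 7425098 UMIs in PT-S2/S3 and 5420077 in PT-S1.

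The study sequenced nuclear RNA from single nuclei of kidney cortex with outer medulla, from 4 samples of male C57BL/6 mice in 2 groups of 2 samples. The Cis9w mice had received 4 weekly injections of cisplatin at 8 mg/kg, and the CT9w mice were untreated. The organ was collected 9 weeks after injections began. Cisplatin is a platinum chemotherapy drug that proximal tubule cells take up and that injures them. Each cluster column pools the nuclei of the samples, none carries a sample's name, and how many PT-S2 nuclei came from Cis9w or CT9w is not known here. A second table gives 1 column of pooled proximal tubule nuclei for Cis9w (8557662 UMIs) and 1 for CT9w (5123727 UMIs). With 1 pooled column on each side there was no test across samples, and the clusters had been made from the same genes. Every ratio below is therefore a description, with a 95% Clopper-Pearson interval that covers counting error only.

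The proximal tubule reclaims most of the glucose, phosphate, amino acids and protein that the glomerulus filters, and it secretes drugs and organic anions into the urine. Its first segment (S1) carries the high-capacity transporters. Its second segment is known for organic anion secretion through Slc22a6 and Slc22a8, and its final, straight segment (S3) for high-affinity transporters and lipid metabolism. The transcription factor HNF4 and other nuclear receptors drive many genes of this epithelium.

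The promoters of 2 genes whose averages were highest in PT-S2 of all 17 columns show letters that such factors are known to bind, and they were chosen because they hold a match. They are Acnat2, an acyl-CoA amino acid N-acyltransferase, and Miox, which opens the ring of myo-inositol. The sequences are those of RefSeq on GRCm38.p6, from 250 bases before to 50 after the annotated start, 5′ to 3′ on the gene's strand. Capitals mark an exact match, on either strand, to the HNF4 core CAAAGTC in Acnat2 and to the nuclear receptor half-site AGGTCA in Miox.
Acnat2: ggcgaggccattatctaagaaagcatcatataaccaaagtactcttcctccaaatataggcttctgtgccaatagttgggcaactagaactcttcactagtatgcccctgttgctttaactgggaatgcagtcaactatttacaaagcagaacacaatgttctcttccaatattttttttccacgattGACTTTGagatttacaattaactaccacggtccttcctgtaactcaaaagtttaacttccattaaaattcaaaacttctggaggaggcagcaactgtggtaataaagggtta
Miox: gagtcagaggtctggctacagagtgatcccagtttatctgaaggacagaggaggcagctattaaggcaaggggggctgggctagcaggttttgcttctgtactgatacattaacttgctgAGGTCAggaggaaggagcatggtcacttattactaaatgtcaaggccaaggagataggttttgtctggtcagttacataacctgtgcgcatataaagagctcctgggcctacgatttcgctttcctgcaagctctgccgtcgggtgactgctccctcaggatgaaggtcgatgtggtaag
The windows are chr4:49408102-49408401 (minus strand) and chr15:89334223-89334522 (plus strand). The HNF4 core begins at position -62 from the start of Acnat2, and the nuclear receptor half-site at -130 in Miox. Among the first listed promoters of 27025 genes, 4.36% held CAAAGTC and 16.04% held AGGTCA. Of the genes with their highest average in PT-S2, 167 had a promoter in the table, and 5.39% of these held CAAAGTC and 16.2% held AGGTCA. Of the 15 leading genes and 5 markers, 12 had a promoter in the table. Of these 1 held CAAAGTC and 0 held AGGTCA, and that of Slc22a8 held neither of the 2. The half-site GTTAAT of another factor, HNF1, had been planned as well but was not counted. The shares of the genes highest in PT-S2 and of all genes lie close together, and a match of letters is a description of the window, not a binding site.

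PT-S2 was the column with the fewest genes of its own. Genes were compared where their mean over the compared columns was at least 0.02 normalised UMIs, a floor that 10224 genes reached over the 17 columns and 8595 over PT-S2, PT-S2/S3 and PT-S1. No gene (0 of 10224, 0.0%) was highest in PT-S2 by 2-fold over every other column. Such genes were nearly as few in some other columns, with 1 in PT-S2/S3, 1 in PT-S3-1, 2 in CNT and 4 in EC1. PT-S1 had 25 and the immune cells 306. By any margin 216 genes (2.11%) were highest there, against 288 in PT-S2/S3, 458 in PT-S1, 659 in PT-S3-2 and 1670 in the immune cells, the column with the most. The columns differ in depth, with 4278626 UMIs in PT-S2 and 363369 in the immune cells. A gene at 0 UMIs was set to 3 UMIs, which is 0.0166 in the immune cells and 0.0237 in mixed-2. The part of depth in this order was not tested. For 47 of the 216 the counting interval of the ratio to the next column lay above 1. The ratios among the leading genes of this kind ran from 1.61 for Trdn to 1.27 for Slc13a2. Between them stood Kynu, Acnat2, Gm48383, Miox, Slc22a8, Gm31356 and Tmem252.

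PT-S2 lay almost equally close to both neighbours. Across the 10224 genes, the Pearson r of log2 averages was 0.978 with PT-S2/S3 and 0.977 with PT-S1, then 0.897 with PT-S3-2, 0.893 with PT-S3-1 and 0.757 with PT-injury/repair. It was 0.508 with one endothelial column (EC2), the lowest of the 16. These columns share normalisation, and genes are not independent replicates. The PT-S2 average was within 1.5-fold of the PT-S2/S3 average for 7864 of 8595 genes (91.5%) and of the PT-S1 average for 7715 (89.8%).

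Few genes differed from both neighbours by 2-fold in the same direction. PT-S2 was at least 2-fold higher than PT-S2/S3 for 173 genes (2.01%) and at least 2-fold lower for 134 (1.56%). It was at least 2-fold higher than PT-S1 for 210 genes (2.44%) and at least 2-fold lower for 131 (1.52%). Only 3 genes (0.0349%) were above both neighbours by 2-fold, namely Pappa, Slc12a3 and Abca13, and 3 (0.0349%) were below both, namely Slc39a8, Lsamp and Slc26a4. By any margin the average lay between the neighbours for 4664 genes (54.3%), above both for 1967 (22.9%) and below both for 1964 (22.9%). With both counting intervals clear of 1, 146 genes were above both neighbours and 94 below both.

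**Figure D1:**
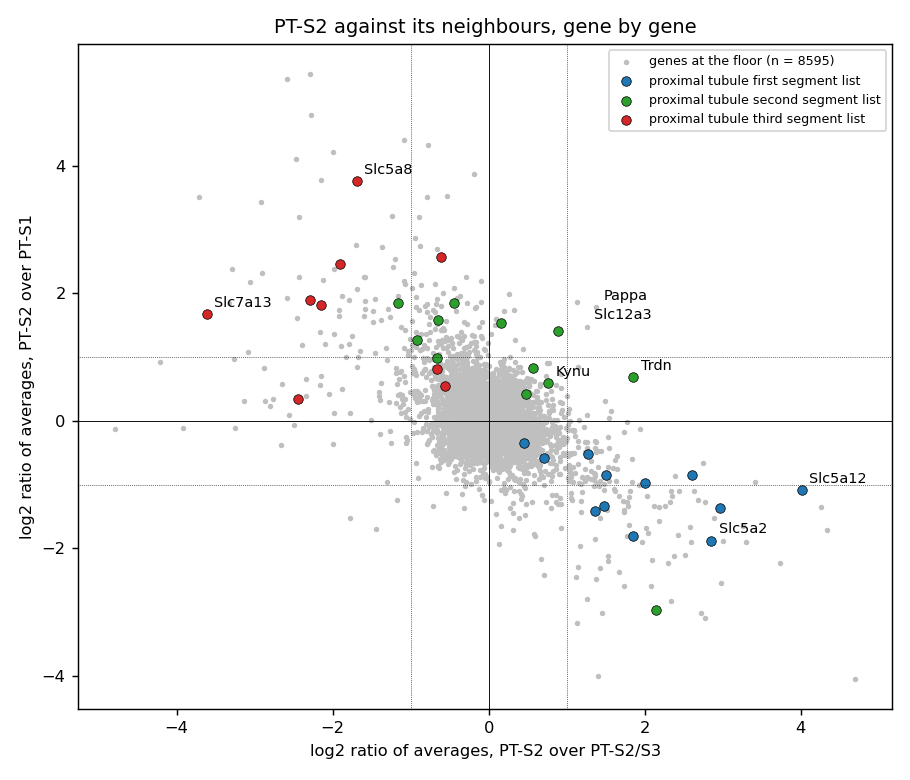
Each point is 1 of 8595 genes, with the log2 ratio of averages of PT-S2 over PT-S2/S3 on the horizontal axis and over PT-S1 on the vertical axis, and dotted lines at 2-fold. The differing genes run from upper left to lower right, with S3 genes such as Slc7a13 at one end and S1 genes such as Slc5a12 at the other, and the upper right corner beyond both 2-fold lines holds 3 genes.

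The intermediate place held across the genes that separate the neighbours from each other. For the 354 genes with a PT-S1 average at least 2-fold that of PT-S2/S3, PT-S2 lay between the neighbours for 344 (97.2%). On a log2 scale where 0 is PT-S2/S3 and 1 is PT-S1, its median position was 0.544, with quartiles at 0.417 and 0.657. For the 433 genes with a PT-S2/S3 average at least 2-fold that of PT-S1, it lay between them for 418 (96.5%), at a median position of 0.406 with quartiles at 0.282 and 0.557. On the linear scale the medians were 0.372 for the PT-S1-high genes and 0.566 for the PT-S2/S3-high genes, so which neighbour was nearer depended on the scale. Whether single nuclei of PT-S2 are intermediate or the cluster holds nuclei of both kinds cannot be told apart from averages.

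**Figure D2:**
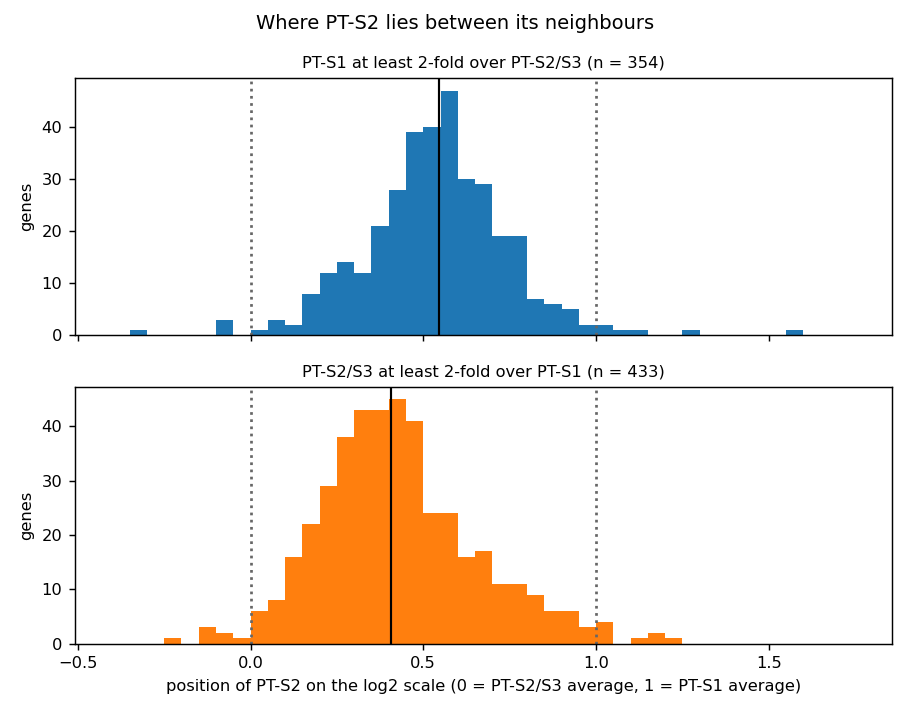
Histograms of the position of PT-S2 between PT-S2/S3 (0) and PT-S1 (1) on the log2 scale, by number of genes, for 354 genes higher in PT-S1 and 433 genes higher in PT-S2/S3; the black lines are the medians, 0.544 and 0.406. Nearly all genes fall between the dotted lines that stand for the neighbours.

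The 5 genes that mark the cluster were each highest in PT-S2 of all 17 columns, and none of them was confined to it. They were picked as leading genes of this same table, so their order is a description. Trdn encodes triadin, which in muscle ties the calcium store's release channel to its calcium-binding protein. The gene lies on chromosome 10 at 33080554 to 33476709 on the plus strand (GRCm38, GENCODE M21), spans 396.2 kb and is annotated as protein coding. Its average was 0.241 in PT-S2 (513 UMIs), 0.0665 in PT-S2/S3 and 0.149 in PT-S1, then 0.0256 in PT-injury/repair, with 0.0376 in PT-S3-1 and 0.00384 in PT-S3-2. Trdn was thus 3.62-fold higher (3.10 to 4.23) than in PT-S2/S3, but 1.61-fold higher (1.41 to 1.84) than in PT-S1. Outside the proximal tubule its highest average was 0.0631, in the column mixed-2.

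Kynu, kynureninase of the path from tryptophan to NAD, lies on chromosome 2 at 43555329 to 43682715. It averaged 0.742 in PT-S2 (1581 UMIs), 0.436 in PT-S2/S3 and 0.494 in PT-S1, ratios of 1.70 (1.59 to 1.83) and 1.501 (1.39 to 1.62). Outside these 3 columns of the tubule it was far lower, at 0.120 in PT-injury/repair, 0.0767 in PT-S3-1 and 0.0390 in PT-S3-2. Slc22a8, the basolateral organic anion transporter OAT3 on chromosome 19 at 8591254 to 8611835, had the same shape. It averaged 0.945 in PT-S2 (2013 UMIs), 0.677 in PT-S2/S3 and 0.709 in PT-S1, ratios of 1.40 (1.32 to 1.48) and 1.33 (1.25 to 1.42), and 0.0329 in PT-S3-2.

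Acnat2, on chromosome 4 at 49379840 to 49408151 on the minus strand, averaged 0.273 in PT-S2 (581 UMIs), 0.183 in PT-S2/S3 and 0.153 in PT-S1. Its ratios were 1.49 (1.33 to 1.67) and 1.78 (1.56 to 2.02). Its paralogue Acnat1 did not share the pattern, at 0.507 in PT-S2, 0.444 in PT-S2/S3, 0.619 in PT-S1 and 0.996 in PT-S3-2. Cyp4a12b, a fatty acid omega-hydroxylase on chromosome 4 at 115411624 to 115439034, had the fewest molecules of the 5 markers. It averaged 0.0512 in PT-S2 (109 UMIs), 0.0276 in PT-S2/S3 and 0.0193 in PT-S1, ratios of 1.85 (1.40 to 2.45) and 2.66 (1.89 to 3.77). Its near copy Cyp4a12a lies on the same chromosome at 115299046 to 115332815 and averaged 0.0366 in PT-S2, 0.0260 in PT-S2/S3 and 0.0230 in PT-S1. How reads were divided between these copies is uncertain.

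**Figure D3:**
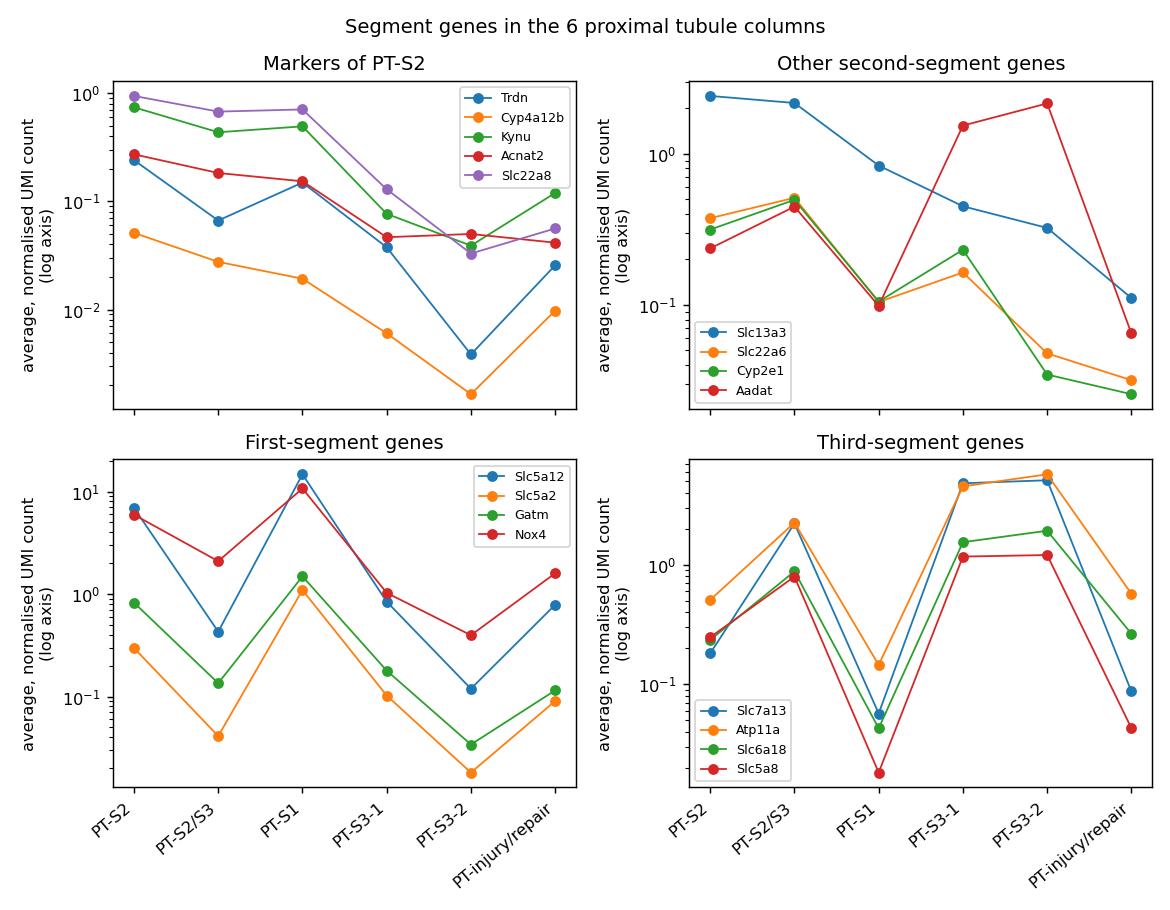
Averages (normalised UMI counts, log axis) in the 6 proximal tubule columns for the 5 markers, 4 other genes of the S2 list, and 4 genes each of the S1 and S3 lists; each point is 1 pooled column. The markers are highest at the left in PT-S2 (Kynu 0.742), S1 genes peak in PT-S1 (Slc5a12 14.7) and S3 genes in PT-S3-2 (Slc7a13 5.08).

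Genes most like Trdn over the 17 columns were Nox4 (r = 0.963), Prodh2 (0.956), Idh1 (0.9498), Slc34a1 (0.949) and Slc26a1 (0.947). Each of these 5 had its highest average in PT-S1 rather than PT-S2. Nox4, an oxidase that makes hydrogen peroxide, averaged 5.95 in PT-S2, 2.09 in PT-S2/S3 and 10.7 in PT-S1. The columns share scaling, and r is given as a description.

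The segment lists placed PT-S2 between an S1-type and an S3-type profile. All 12 S1 genes reached the floor; 10 were 2-fold higher in PT-S2 than in PT-S2/S3 and none lower (median log2 ratio 1.68), while none was 2-fold higher and 6 were lower than in PT-S1 (median -1.03). Over all 8595 genes the medians were -0.0078 against PT-S2/S3 and 0.0081 against PT-S1. Slc5a12, the apical lactate cotransporter SMCT2, averaged 6.93 in PT-S2, 0.429 in PT-S2/S3 and 14.7 in PT-S1. That is 16.1-fold (15.3 to 17.0) the PT-S2/S3 average and 0.470 (0.462 to 0.479) of the PT-S1 average. Slc5a2, the glucose cotransporter SGLT2, averaged 0.298 in PT-S2, 0.0411 in PT-S2/S3 and 1.09 in PT-S1. Gatm, which makes the creatine precursor guanidinoacetate, averaged 0.825 in PT-S2, 0.135 in PT-S2/S3 and 1.49 in PT-S1.

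Genes of the S3 list had the opposite order. Of 14 listed, 9 reached the floor; none was 2-fold higher and 6 were lower in PT-S2 than in PT-S2/S3 (median log2 ratio -1.91), and 6 were higher and none lower than in PT-S1 (median 1.81). Slc7a13, the light chain of an aspartate, glutamate and cystine carrier, averaged 0.181 in PT-S2, 2.21 in PT-S2/S3, 0.0567 in PT-S1 and 5.08 in PT-S3-2. It was 0.0817 (0.0736 to 0.0905) of PT-S2/S3 but 3.19-fold (2.64 to 3.87) PT-S1. Slc5a8, the lactate cotransporter SMCT1, averaged 0.246 in PT-S2, 0.793 in PT-S2/S3 and 0.0182 in PT-S1. The 5 genes under the floor were Slc22a7, Slc22a19, Slc22a13, Bcat1 and Agt.

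The S2 list divided. It held 12 genes, the 5 markers among them, and 6 peaked in PT-S2 among the 6 proximal tubule columns. Against PT-S2/S3, 2 were 2-fold higher and 1 lower (median log2 ratio 0.32), and against PT-S1, 6 were higher and 1 lower (median 1.12). With the floor at 0.1, the median over PT-S2/S3 was -0.15. Slc13a3, the basolateral dicarboxylate transporter that fuels organic anion uptake, averaged 2.42 in PT-S2, 2.17 in PT-S2/S3 and 0.837 in PT-S1. Slc22a6, the organic anion transporter OAT1 and a neighbour of Slc22a8 on chromosome 19, was instead highest in PT-S2/S3, with 0.375 in PT-S2, 0.512 in PT-S2/S3 and 0.104 in PT-S1. Cyp2e1 averaged 0.315 in PT-S2, 0.496 in PT-S2/S3 and 0.105 in PT-S1, and Fmo5 and Aadat were higher still in the S3 columns. Slc34a3 went against its place in the list, with 0.0131 in PT-S2, 0.00297 in PT-S2/S3 and 0.103 in PT-S1. Of the 6 genes that peaked in PT-S2, 5 were the markers taken from this same table, and the other was Slc13a3.

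Genes of the whole proximal tubule were close to equal in the 3 columns. Of 20, 1 was 2-fold higher than in PT-S2/S3 (Gatm) and none differed by 2-fold from PT-S1. Lrp2, the endocytic receptor megalin, averaged 5.83 in PT-S2, 5.70 in PT-S2/S3 and 5.00 in PT-S1. Slc34a1, the main phosphate cotransporter, averaged 11.2 in PT-S2, 9.38 in PT-S2/S3 and 12.4 in PT-S1, against 0.916 in PT-S3-2. None of 25 endocytosis and lysosome genes differed by 2-fold from either neighbour. Such differences were rare over all 8595 genes too, at 2.01% higher and 1.56% lower than in PT-S2/S3. Against PT-S1 they were 2.44% and 1.52%.

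The largest differences from each neighbour added genes outside these lists. Itpr2, an inositol trisphosphate-gated calcium channel, averaged 1.84 in PT-S2, 0.274 in PT-S2/S3 and 2.89 in PT-S1. Tbxas1, thromboxane synthase, averaged 0.191 in PT-S2, 0.02001 in PT-S2/S3 and 0.6002 in PT-S1. In the other direction Slco1a1, an organic anion transporter, averaged 0.00986 in PT-S2 (21 UMIs), 0.272 in PT-S2/S3 and 0.0107 in PT-S1, so that PT-S2 and PT-S1 were both far below PT-S2/S3. Esr1, the oestrogen receptor, averaged 0.0366 in PT-S2, 0.357 in PT-S2/S3 and 0.00704 in PT-S1. Cd36, a fatty acid uptake receptor, averaged 0.0333 in PT-S2, 0.321 in PT-S2/S3 and 0.0170 in PT-S1.

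Against PT-S1, a run of vomeronasal receptor genes stood out. Vmn1r18 averaged 0.257 in PT-S2 (547 UMIs), 1.25 in PT-S2/S3 and 0.00593 in PT-S1, a 43.3-fold ratio (26.4 to 76.3) to PT-S1. Vmn1r20 averaged 0.0577 in PT-S2, 0.320 in PT-S2/S3 and 0.00333 in PT-S1. Vmn1r19 had 44 UMIs in PT-S2 and none in PT-S1, at least 18.6-fold higher when PT-S1 is set to 3 UMIs. These receptors belong to a large family of near copies, so their separate counts are uncertain. They lie side by side on chromosome 6, from 57376660 to 57435261. A nearby gene annotated as antisense, 4930533I22Rik at 57476697 to 57497671, had a like order. On the log2 scale from PT-S2/S3 (0) to PT-S1 (1), its position was 0.322. Those of Vmn1r18, Vmn1r19 and Vmn1r20 were 0.296, 0.321 and 0.375. Whether these counts come from separate transcripts was not tested. Slc5a1, the glucose cotransporter SGLT1, averaged 0.0746 in PT-S2, 0.128 in PT-S2/S3 and 0.00370 in PT-S1.

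By the median, transporters of organic ions were nearer to PT-S2/S3, though not every gene was. The SLC22 median log2 ratio was -0.075 over PT-S2/S3 and 0.350 over PT-S1. For the other organic anion and drug transporters the medians were -0.098 and 0.353. Slc22a23, Slc22a29 and Slco1a1 lay nearer to PT-S1 on the log2 scale. Of 21 SLC22 genes 14 reached the floor, and 2 were 2-fold higher and none lower than in PT-S2/S3, while 3 were higher and 1 lower than in PT-S1. Over all 8595 genes, 2.01% were higher and 1.56% lower than in PT-S2/S3, and 2.44% and 1.52% against PT-S1. The counts of the lists that follow stand beside these same shares. Slc22a23 averaged 1.54 in PT-S2, 0.696 in PT-S2/S3 and 2.04 in PT-S1, and Slc22a2, the cation transporter OCT2, averaged 0.295 in PT-S2, 0.421 in PT-S2/S3 and 0.122 in PT-S1. OCT2 is a known route of cisplatin into this epithelium. Of 16 other organic anion and drug transporters at the floor, none was 2-fold higher and 1 lower than in PT-S2/S3, and 4 were higher and none lower than in PT-S1. Slc13a2, the apical citrate carrier, averaged 0.477 in PT-S2, 0.377 in PT-S2/S3 and 0.197 in PT-S1, and Slco3a1 averaged 0.932 in PT-S2, 1.79 in PT-S2/S3 and 0.127 in PT-S1.

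Sugar, phosphate and carboxylate carriers and amino acid carriers divided by segment. Of 25 sugar, phosphate and carboxylate carriers, 3 were 2-fold higher and 1 lower than in PT-S2/S3, and 3 were higher and 4 lower than in PT-S1. Of 20 amino acid carriers, 4 were higher and 4 lower than in PT-S2/S3, and 3 were higher and 4 lower than in PT-S1. Slc6a19, the S1 carrier of neutral amino acids, averaged 0.461 in PT-S2, 0.115 in PT-S2/S3 and 0.907 in PT-S1. Slc6a18, its straight-segment relative, averaged 0.234 in PT-S2, 0.878 in PT-S2/S3 and 0.0426 in PT-S1. Slc7a8, a basolateral exchanger, averaged 0.680 in PT-S2, 0.197 in PT-S2/S3 and 1.72 in PT-S1.

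**Figure D4:**
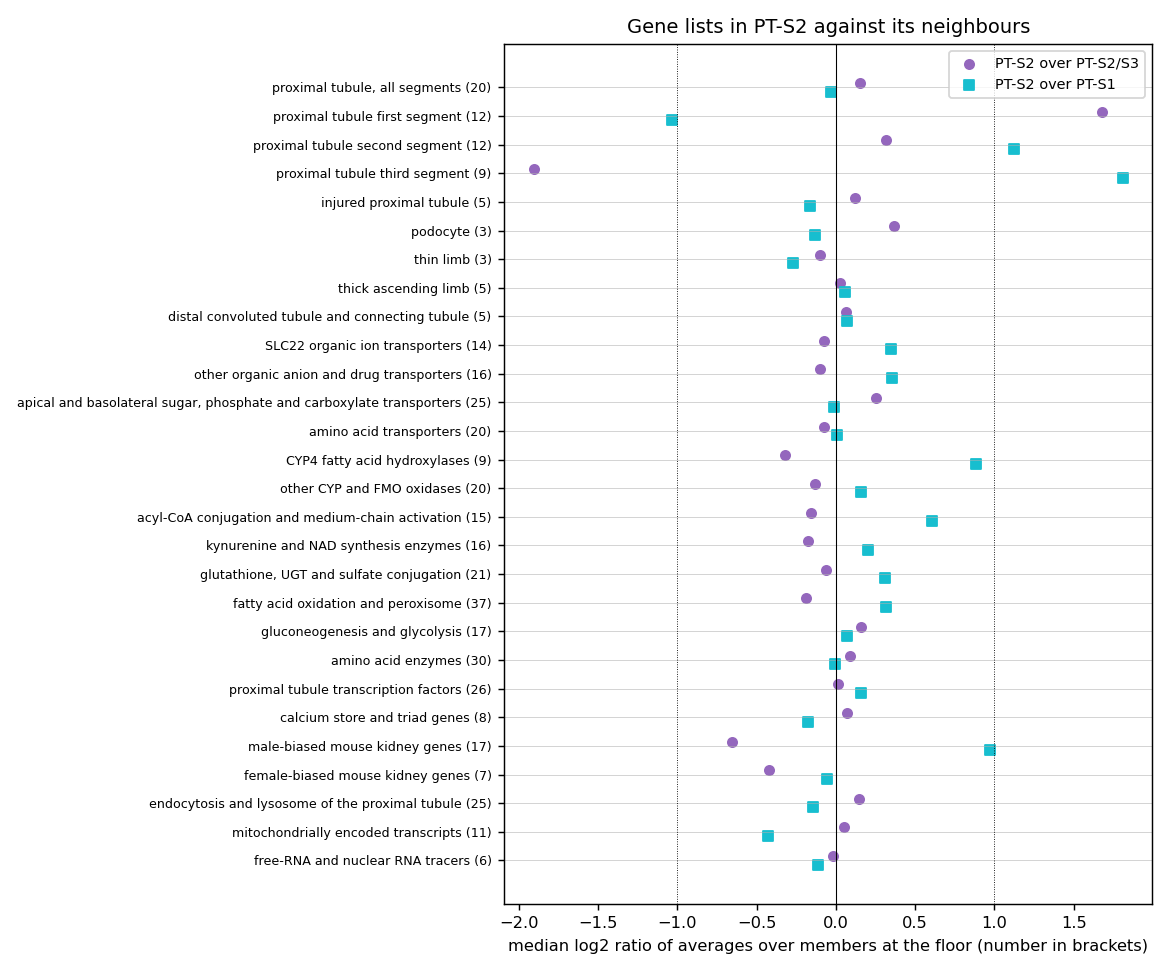
Median log2 ratio of averages of PT-S2 over PT-S2/S3 (circles) and over PT-S1 (squares) for each gene list with at least 3 members at the floor, whose number stands in brackets; dotted lines mark 2-fold. The segment lists lie farthest out (S1 list 1.68 and -1.03, S3 list -1.91 and 1.81), and most metabolic lists lie near 0.

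Lipid oxidation genes leaned towards PT-S2/S3. None of 9 CYP4 fatty acid hydroxylases at the floor differed by 2-fold from PT-S2/S3 (median log2 ratio -0.32), and 3 were 2-fold higher than in PT-S1 (median 0.88). Cyp4b1 averaged 3.73 in PT-S2, 4.66 in PT-S2/S3 and 1.90 in PT-S1. Of 37 genes of fatty acid oxidation and peroxisomes, 1 was 2-fold higher than in PT-S2/S3, namely Acsl1, which activates long-chain fatty acids, and 4 were higher than in PT-S1. The shares over all genes at the floor were 2.01% and 2.44%. Of 15 genes of acyl-CoA conjugation, none was 2-fold higher and 1 lower than in PT-S2/S3 (Acsm3), and 4 were higher and none lower than in PT-S1.

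Other genes of the kynurenine pathway did not share the order of Kynu as a group, although 5 of the list, Kynu among them, peaked in PT-S2 among the 6 proximal tubule columns. Of 16 kynurenine and NAD genes at the floor, none was 2-fold higher and 1 lower than in PT-S2/S3, and 2 were higher and none lower than in PT-S1 (Ido2 and Aadat). Afmid, the formamidase that makes kynurenine, averaged 0.360 in PT-S2, 0.303 in PT-S2/S3 and 0.265 in PT-S1. Aadat, which turns kynurenine to kynurenic acid, averaged 0.237 in PT-S2, 0.447 in PT-S2/S3, 0.0985 in PT-S1 and 2.16 in PT-S3-2. Acmsd, which diverts the pathway from NAD, averaged 0.544 in PT-S2, 0.349 in PT-S2/S3 and 0.575 in PT-S1.

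Genes of a joint gluconeogenesis and glycolysis list differed little but often peaked in PT-S2. None of 17 at the floor differed by 2-fold from either neighbour (medians 0.16 and 0.07), and 7 of them peaked in PT-S2 among the 6 proximal tubule columns. Over all genes at the floor 7.13% did so (613 of 8595). The list joins both pathways, and its 7 peaking genes were not divided between them. Pck1, the gluconeogenic carboxykinase, averaged 1.41 in PT-S2, 1.18 in PT-S2/S3 and 0.883 in PT-S1. Fbp1 averaged 1.33 in PT-S2, 1.09 in PT-S2/S3 and 1.31 in PT-S1. Of 30 amino acid enzymes, 4 were 2-fold higher and 1 lower than in PT-S2/S3, and 3 were higher and none lower than in PT-S1. Of 20 other CYP and FMO oxidases, 2 were higher and 4 lower than in PT-S2/S3, and 4 were higher and 2 lower than in PT-S1. Of 21 conjugation genes, 1 was higher and 1 lower than in PT-S2/S3, and 3 were higher and none lower than in PT-S1. The shares over all genes at the floor were 2.01% higher and 1.56% lower than in PT-S2/S3, and 2.44% and 1.52% against PT-S1.

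No transcription factor of the 26 at the floor differed by 2-fold from either neighbour. Over all 8595 genes, 2.01% were higher and 1.56% lower than in PT-S2/S3, and 2.44% and 1.52% against PT-S1. A count of 0 among 26 therefore does not set these factors apart. Hnf4a averaged 1.36 in PT-S2, 1.34 in PT-S2/S3 and 1.05 in PT-S1, and Hnf4g averaged 1.34 in PT-S2, 1.57 in PT-S2/S3 and 0.788 in PT-S1. Of 8 calcium store genes at the floor, Trdn and Itpr2 were 2-fold higher than in PT-S2/S3. Ryr2, a calcium release channel that triadin accompanies in heart muscle, was lower than in both neighbours, with 0.0183 in PT-S2 (39 UMIs), 0.0300 in PT-S2/S3 and 0.0459 in PT-S1.

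Genes known to be male-biased in mouse kidney followed the S3 order. Of 17 at the floor, none was 2-fold higher and 6 were lower than in PT-S2/S3 (median log2 ratio -0.65), and 7 were higher and none lower than in PT-S1 (median 0.97). Kap, an androgen-regulated kidney transcript, averaged 0.909 in PT-S2, 1.58 in PT-S2/S3 and 0.868 in PT-S1. Of 7 female-biased genes at the floor, 1 was higher and 2 lower than in PT-S2/S3, and 1 was higher and 1 lower than in PT-S1. Slc7a12, a female-biased amino acid carrier, averaged 0.0103 in PT-S2, 0.0581 in PT-S2/S3 and 0.0107 in PT-S1, against 1.98 in PT-S3-2.

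The 3 genes 2-fold above both neighbours had their highest averages outside the proximal tubule. Slc12a3, the thiazide-sensitive sodium chloride cotransporter of the distal convoluted tubule (DCT), averaged 0.261 in PT-S2 (556 UMIs), 0.109 in PT-S2/S3 and 0.0937 in PT-S1, against 33.7 in the DCT+CNT column. The PT-S2 level was 0.774% of that column. Abca13 averaged 0.230 in PT-S2, 0.105 in PT-S2/S3 and 0.0630 in PT-S1, against 22.7 in DCT+CNT. Pappa, a metalloprotease that cleaves IGF-binding proteins, averaged 0.0676 in PT-S2 (144 UMIs), 0.0260 in PT-S2/S3 and 0.0196 in PT-S1, and its highest column was the principal cells (PC).

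Other DCT genes lay on both sides of PT-S2/S3. Of the 9 DCT and connecting tubule markers, Slc12a3 and Trpm6 were 2-fold above both neighbours, Trpm6 by 2.79-fold (1.70 to 4.64) over PT-S2/S3 and 2.19-fold (1.32 to 3.70) over PT-S1, though it was under the floor. Calb1 was 0.821-fold (0.581 to 1.15) of PT-S2/S3, Slc8a1 0.812-fold (0.722 to 0.912) and Wnk1 1.05-fold (0.971 to 1.13). The summed level of the 9 was 1.17 in PT-S2, 1.02 in PT-S2/S3 and 0.986 in PT-S1, against 4.38 in PT-S3-1 and 110 in DCT+CNT, and none of the 9 was at 0 UMIs in PT-S2. The part of these nuclei or their RNA in the 3 genes was not tested.

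Markers of other cells were low in PT-S2. Their summed levels were 0.0591 for 10 principal cell genes, 0.0713 for 10 intercalated cell genes, 0.165 for 12 endothelial genes, 0.0399 for 13 immune genes and 0.0296 for 12 fibroblast and mesangial genes. The same sums were 0.0611, 0.0928, 0.140, 0.0462 and 0.0333 in PT-S2/S3 and 0.0693, 0.0937, 0.185, 0.0359 and 0.0300 in PT-S1. Of these lists, 2 immune and 3 fibroblast genes had 0 UMIs in PT-S2. The podocyte list summed to 4.07 in PT-S2, 2.03 in PT-S2/S3 and 6.81 in PT-S1, against 140 in podocytes, and Magi2, a scaffold gene, made up 3.25 of the PT-S2 sum. The thick ascending limb list summed to 2.27 in PT-S2, 2.30 in PT-S2/S3 and 1.93 in PT-S1, with Cldn10 at 1.71 in PT-S2, and 7 thin limb genes summed to 0.201, 0.199 and 0.212 in the same order. The 14 injury genes summed to 0.358 in PT-S2, 0.399 in PT-S2/S3 and 0.437 in PT-S1, against 8.99 in PT-injury/repair. None of 11 mitochondrially encoded transcripts differed by 2-fold from either neighbour (medians 0.05 and -0.43), and none of 6 tracers of free or nuclear RNA did.

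The genes below both neighbours were mostly scarce. Slc39a8, a zinc importer, averaged 0.0113 in PT-S2 (24 UMIs), 0.0387 in PT-S2/S3 and 0.0322 in PT-S1. Lsamp, a neural adhesion molecule, averaged 0.00986 in PT-S2 (21 UMIs), 0.0268 in PT-S2/S3 and 0.0319 in PT-S1. Slc26a4, the intercalated cell exchanger pendrin, averaged 0.0117 in PT-S2 (25 UMIs), 0.0265 in PT-S2/S3 and 0.0278 in PT-S1. Better counted were C1qtnf3, with 0.0544 in PT-S2 (116 UMIs), 0.102 in PT-S2/S3 and 0.102 in PT-S1, and Selenop, the selenium carrier, with 0.115 in PT-S2 (246 UMIs), 0.181 in PT-S2/S3 and 0.188 in PT-S1. Frmpd4, Rps27l, Mbd4 and Jrkl were the others among the 10 lowest.

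Among the 15 genes farthest above both neighbours, 4 were markers of the cluster and 6 had under 100 UMIs in PT-S2. Besides those already described, Akr1c19, an aldo-keto reductase, averaged 0.0512 in PT-S2 (109 UMIs), 0.0308 in PT-S2/S3 and 0.0315 in PT-S1. Plppr1, a phospholipid phosphatase-related membrane protein, averaged 0.169 in PT-S2 (361 UMIs), 0.0998 in PT-S2/S3 and 0.110 in PT-S1. The other genes were Gmppa, 4930483K19Rik, Gm11457, Arl10, Zbtb7b and Med4, with 61 to 81 UMIs each.

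In the pooled proximal tubule nuclei the markers of PT-S2 did not differ together between Cis9w and CT9w. These pools mix proximal tubule segments, so fewer nuclei of a type and less RNA per nucleus cannot be told apart. Which clusters, and how many samples of each group, entered them is not stated. They held 8557662 UMIs (Cis9w) and 5123727 UMIs (CT9w). The 6 proximal tubule clusters held more, 65.9% of the 36068714 UMIs of the 17 clusters. Trdn averaged 0.102 in Cis9w and 0.238 in CT9w, a ratio of 0.430 (0.371 to 0.498). Kynu averaged 0.762 in Cis9w and 0.319 in CT9w, a ratio of 2.39 (2.18 to 2.62). Slc22a8 averaged 0.925 in Cis9w and 0.590 in CT9w, a ratio of 1.57 (1.46 to 1.68), and Acnat2 averaged 0.247 in Cis9w and 0.162 in CT9w, a ratio of 1.53 (1.33 to 1.75). Cyp4a12b averaged 0.0327 in Cis9w and 0.0317 in CT9w, a ratio of 1.03 (0.740 to 1.45), while its copy Cyp4a12a averaged 0.0160 in Cis9w and 0.0622 in CT9w. Among these markers Trdn and Kynu thus stood on opposite sides, and Cyp4a12b lay at 1.03.

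Of the 15 leading genes, 3 were 2-fold higher in Cis9w and 1 was 2-fold lower (median log2 ratio 0.21). Over the 9902 genes at the floor of that table, 231 (2.33%) were 2-fold higher and 186 (1.88%) 2-fold lower, with a median of 0.03. Pappa averaged 0.0752 in Cis9w and 0.0175 in CT9w, a ratio of 4.30 (2.96 to 6.44), and Akr1c19 averaged 0.0801 in Cis9w and 0.0186 in CT9w, a ratio of 4.31 (3.01 to 6.37). Slc12a3 and Abca13 had ratios of 0.865 and 0.811. Of the 216 genes highest in PT-S2 by any margin, 9 were 2-fold higher in Cis9w and 2 lower (median 0.04).

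**Figure D5:**
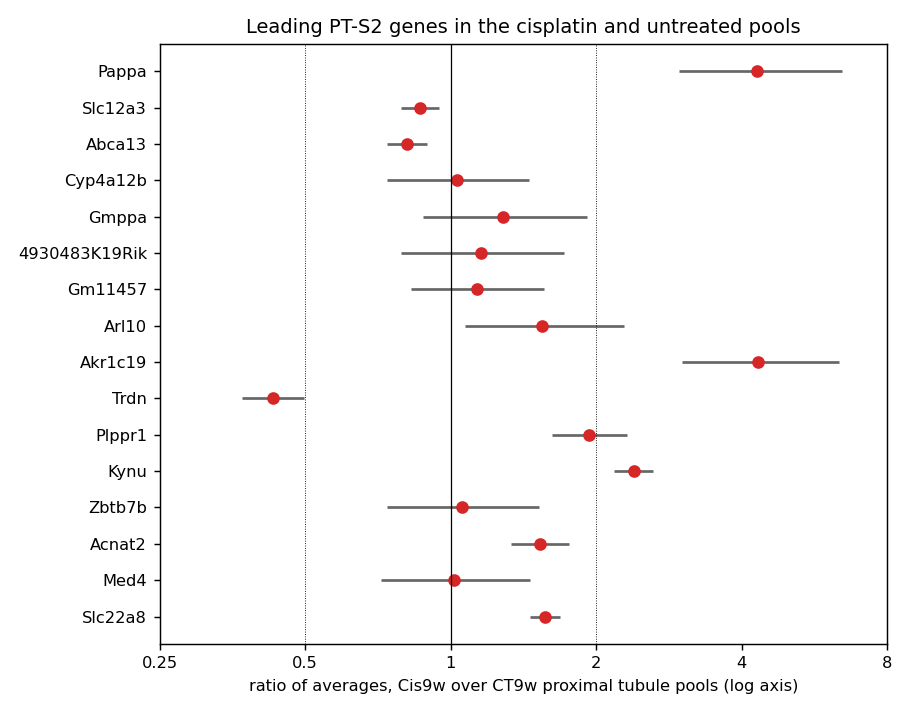
Ratio of the pooled proximal tubule averages, Cis9w over CT9w, for the 15 genes farthest above both neighbours of PT-S2 and for Slc22a8, on a log axis; bars are 95% intervals for counting error only, and each group is 1 pooled column. Pappa, Akr1c19 and Kynu lie above 2, Trdn lies below 0.5, and the others lie between the dotted 2-fold lines.

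The genes that separate the neighbours differed in opposite directions by set. Over all 9902 genes at the floor of the pools, 2.33% were 2-fold higher in Cis9w and 1.88% lower. Of the 354 genes higher in PT-S1, 29 were 2-fold higher in Cis9w and 2 lower (median log2 ratio 0.26). Of the 433 genes higher in PT-S2/S3, 17 were 2-fold higher in Cis9w and 86 lower (median -0.43). By list, 1 of 12 S1 genes was 2-fold higher in Cis9w and none lower (median 0.33), 1 of 12 S2 genes was higher and 3 lower (median -0.19), and none of 13 S3 genes was higher and 8 lower (median -1.29). Of 17 male-biased genes, none was higher and 10 were lower (median -1.02). In the same pools, 8 of 9 injury genes at the floor were 2-fold higher in Cis9w and none lower (median 2.79). Of other cell types, 2 of 3 intercalated cell genes and 1 of 5 endothelial genes were 2-fold higher. So were 1 of 1 principal cell gene and 1 of 7 DCT and connecting tubule genes. Lower by 2-fold were 1 of 1 immune gene and 1 of 4 thin limb genes. None of 4 podocyte or 7 thick ascending limb genes was 2-fold higher or lower. The part of the mix of nuclei in these differences was not tested.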

How the data were processed

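Nuclei of 4 samples (2 Cis9w, 2 CT9w) were profiled with a droplet 3′ kit, per the labels' protocols, and the submitters' processing notes name Cell Ranger 5.0.1 and mm10. Whether intronic reads were counted, and how nuclei were filtered, doublets treated and clusters made, was not stated in the labels. The authors deposited averages per cluster, a signal of UMIs divided by size factors, in 2 tables scaled separately (each cluster column sums to 2008, each pool column to 2797), so levels were not compared across tables. The authors' fold changes and p-values were not used. Values were whole multiples of 1 step within 0.1 UMI for 100% of cluster values and at least 99.9953% of pool values, which gave back UMI counts and the sum of size factors (2131 in PT-S2).

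Each ratio of averages has a 95% Clopper-Pearson interval, with a column at 0 UMIs set to 3 UMIs; PCR and nucleus-to-nucleus spread are not covered. A gene was called at a ratio of 2 or more either way, among genes whose mean over the compared columns was at least 0.02. Log2 correlations used a pseudocount of 0.005. Python 3.11.15, numpy 2.4.6, pandas 2.3.3, scipy 1.17.1 and matplotlib 3.10.9 were used, and the recovery and the intervals were tested on simulated data. Of 24468 gene IDs, 24416 matched GENCODE M21 (GRCm38, the assembly of mm10).

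The markers, the 33 gene lists and the rules were chosen with earlier results of these data known. Genes named were the 5 markers, the 15 farthest above and 10 farthest below both neighbours, the 10 leading the 17 columns, the 10 highest averages in PT-S2, the 5 most like Trdn, up to 4 per list with those highest in PT-S2, and 5 fixed genes. The genes with the largest and smallest ratio to each neighbour were added after their values were seen, as were some list members. Alternatives were other floors, folds, pseudocounts, scalings and likeness measures. Some genes chosen by these rules are not reported here.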

Additional observations from a re-analysis of the deposited data

How the results depend on the processing

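Counts of genes moved with the floor and the fold. With the floor at 0.1, PT-S2 was higher than PT-S2/S3 for 69 genes and lower for 40, and higher than PT-S1 for 97 and lower for 41. With no floor these counts were 2912, 1172, 2323 and 1989, with 624 genes above both neighbours and 423 below both. At 1.5-fold they were 377, 354, 511 and 369, with 12 above both and 14 below both. At 3-fold they were 72, 70, 93 and 50, with 0 above both and 0 below both. With the floor at 0.01, 209 genes were lower than PT-S2/S3, 219 lower than PT-S1 and 9 below both, and at a floor of 0.1 there were 0 below both. A pseudocount, median-centring or a counting interval clear of 1 left each of these counts within 1.5 times. The count of genes highest of 17 columns was 0 at 2-fold, 2 at 1.5-fold and 216 at any margin. The r with PT-S2/S3 was 0.9755 by Spearman, 0.9802 with a pseudocount of 0.05, 0.9721 at a floor of 0.1 and 0.9892 with no floor, and with PT-S1 it was 0.9747, 0.9794, 0.9709 and 0.988; PT-S2/S3 was nearest and PT-S1 next each time. Among leading genes, 4 differed by 2-fold between Cis9w and CT9w, 7 by 1.5-fold, and 8 when 50 genes were taken. The counts moved with the threshold or the genes tested; for the moves in r by Spearman and with the pseudocount, the cause was not tested. Of 56 list medians, none past 2-fold changed sign, but 14 nearer 0 did so at a floor of 0.1, with median-centring or by the mean, 8 of them over PT-S2/S3. There the S2 list (0.32) was -0.15 and the kynurenine and NAD list (-0.17) was 0.02 at a floor of 0.1, and the SLC22 list (-0.07) was 0.07 and the injury list (0.12) was -0.21 by the mean. No paired analysis was possible because no column carries a sample, and for the same reason no replicate could be left out. Depth limits scarce genes: 3 UMIs in PT-S2 correspond to 0.00141, and 6 of the 15 leading genes had under 100 UMIs.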
